A study of Homo sapiens with 4 samples.

Results

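Sorted cells derived from H1 human embryonic stem cells, an established line, were profiled by RNA sequencing and examined here for 46 genes that encode enzymes of glycolysis, of the steps that decide the fate of pyruvate, of the pentose phosphate pathway and of the tricarboxylic acid (TCA) cycle. The genes were taken from a list of symbols, and each of the 46 had 1 row in all 4 tables, which hold 28285 gene rows in all. The tested cells, called GFP-positive, carried enhanced green fluorescent protein (eGFP) and were described as hemogenic endothelium, a vessel lining cell type that gives rise to blood. Their counterpart, called GFP-negative, lacked eGFP and was described as endothelial cells, although the source name of all 4 samples gives hemogenic endothelium. Both fractions came from cells with eGFP knocked into GATA2, a transcription factor gene of blood progenitors. All titles also name Cre, whose role the labels do not explain. Both fractions were sorted as CD34+, CD31+ and CD43-, and each had 2 libraries. The labels do not say that the replicates came from separate cultures, so errors and p-values reflect only how far these 4 samples scatter, and that scatter may be technical. Levels are in TPM, which is corrected for transcript length and for the library total, and an SD is over n = 2.

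Glycolysis splits glucose into pyruvate with a net gain of ATP. Phosphofructokinase is its committed step and is set by a bisphosphate made and removed by the bifunctional PFKFB enzymes. Pyruvate is then reduced to lactate by lactate dehydrogenase or enters mitochondria, where pyruvate dehydrogenase, held in check by the PDK kinases, feeds the TCA cycle, while the pentose phosphate pathway branches off early to supply NADPH and ribose. Endothelial cells are known for a strong reliance on glycolysis, with PFKFB3 as a known regulator of that flux in vessel growth, and many glycolytic genes are known targets of the hypoxia-inducible factors.

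Sequence upstream of the transcription start is shown for 4 members with a single start in the RefSeq table used here: PGK1 and ENO1, whose levels followed the replicate number, and ENO2 and MDH2, whose levels were higher in both GFP-positive libraries. Each run is the 250 bases before the start, 5′ to 3′ on the gene's strand, from RefSeq on GRCh38.p14. Capitals mark ACGTG or GCGTG on either strand, the core letters that hypoxia-inducible factors are known to bind. The windows lie at chrX:78103998-78104247 (plus strand) for PGK1, chr1:8878687-8878936 (minus strand) for ENO1, chr12:6914330-6914579 (plus strand) for ENO2 and chr7:76047856-76048105 (plus strand) for MDH2. GENCODE v29 places the outer start of PGK1, ENO1 and ENO2 further upstream, so their windows lie within the GENCODE gene.
PGK1: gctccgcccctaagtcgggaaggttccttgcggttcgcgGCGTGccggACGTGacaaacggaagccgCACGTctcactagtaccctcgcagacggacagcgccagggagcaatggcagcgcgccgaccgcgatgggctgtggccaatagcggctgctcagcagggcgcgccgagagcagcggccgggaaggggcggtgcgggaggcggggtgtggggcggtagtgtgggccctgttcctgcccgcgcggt
ENO1: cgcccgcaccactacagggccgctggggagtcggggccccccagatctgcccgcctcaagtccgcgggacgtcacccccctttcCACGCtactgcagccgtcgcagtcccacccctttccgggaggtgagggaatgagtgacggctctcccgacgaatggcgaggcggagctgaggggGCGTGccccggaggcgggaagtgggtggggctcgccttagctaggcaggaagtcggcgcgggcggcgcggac
ENO2: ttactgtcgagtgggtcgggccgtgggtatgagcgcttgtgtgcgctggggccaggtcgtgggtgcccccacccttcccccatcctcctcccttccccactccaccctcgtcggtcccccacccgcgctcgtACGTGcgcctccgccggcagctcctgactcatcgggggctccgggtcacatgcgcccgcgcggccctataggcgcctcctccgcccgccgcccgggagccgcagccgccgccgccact
MDH2: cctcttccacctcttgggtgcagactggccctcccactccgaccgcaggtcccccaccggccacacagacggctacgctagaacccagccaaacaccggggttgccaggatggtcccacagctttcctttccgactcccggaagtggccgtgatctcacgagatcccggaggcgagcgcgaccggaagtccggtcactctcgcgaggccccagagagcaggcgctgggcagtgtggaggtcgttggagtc
The PGK1 window held 3 matches, which begin 211, 202 and 183 bases before the start, and the ENO1 window held 2, at 166 and 72 bases. The ENO2 window held 1 match, at 118 bases, and the MDH2 window held 0. RefSeq windows were matched for 44 of the 46 members, all but PFKFB2 and OGDH. Counting every annotated start, ACGTG on either strand was present for 19 of the 44 genes (43.2%), against 21.7% of all 27305 genes with a window. GCGTG was present for 24 (54.5%), against 36.2% of all genes. Among 17 glycolytic genes with a window, 11 (64.7%) held ACGTG, against 2 of 13 TCA genes (15.4%). The other core did not show that contrast: GCGTG was present for 10 glycolytic genes (58.8%), against 7 TCA genes (53.8%), and over single windows it was in 29.7% of glycolytic ones, against 46.7% of TCA ones. Counted over single windows instead, since members with several starts have more chances, ACGTG was in 31.4% of 70 member windows, against 18.5% of all 35116, and GCGTG in 35.7%, against 32.2%. The palindrome CACGTG, which contains ACGTG, was present for 8 members (18.2%), against 7.73% of all genes. The comparison with all genes was not matched for base composition, although both cores contain CG and the windows shown were 66.0% to 74.0% G or C. A match describes the letters of the window and does not show that a factor binds there.

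Both fractions expressed endothelial genes. All 11 endothelial markers measured were lower in both GFP-positive libraries, with a summed level of 2463 and 2669 TPM in GFP-positive and 5063 and 4618 TPM in GFP-negative libraries. PECAM1, the gene of CD31, is not analysed here. CD34, the gene of a sort marker, had 458 and 536 TPM in GFP-positive and 1232 and 1199 TPM in GFP-negative libraries. Its log2 fold change was -1.29 (limma adjusted p = 0.0316), and no other endothelial marker passed. CDH5, which was not used for the sort, had 329 and 314 TPM in GFP-positive and 767 and 623 TPM in GFP-negative libraries. Summed erythroid markers had 467 and 272 TPM in GFP-positive and 78.2 and 69.5 TPM in GFP-negative libraries, and AHSP was listed at 0 in all 4. Summed stromal markers had 1870 and 1836 TPM in GFP-positive and 986 and 1220 TPM in GFP-negative libraries. Of the 11 stromal markers, 4 were higher in both GFP-positive libraries, against 22.8% of all tested genes, and 7 overlapped, so the sum does not describe the whole list. Summed proliferation genes had 1545 and 1286 TPM in GFP-positive and 1335 and 1084 TPM in GFP-negative libraries. The part of these lists in the values below was not tested. In such bulk samples, a smaller share of cells of a type and less RNA per cell cannot be told apart. The depth of each library is unknown, since TPM does not carry it.

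The main comparison asked whether enzyme levels differed between cells with and without the GATA2 reporter. Of the 46 members, 45 reached 1 TPM in at least 2 libraries and were tested with limma on log2(TPM + 1). None of the 45 passed a Benjamini-Hochberg adjusted p of 0.05 over all genes, against 0.447% of the 15425 genes tested (69 genes, 0.123% higher and 0.324% lower) and 0.795% of those with a mean of at least 25 TPM. At an unadjusted p under 0.05 in limma, 3 members were higher (PFKP, ENO2 and MDH2), against 6.69% of all tested genes, and 1 was lower (PFKFB3), against 7.38%. Together these were 4 of 45, against 14.1% of all tested genes and 17.5% of those with a mean of at least 25 TPM. The median log2 fold change over the members was 0.04, against 0.02 over all tested genes. Differences were small: the median absolute log2 fold change was 0.16 for the members, 0.33 for all tested genes and 0.24 for tested genes with a mean of at least 25 TPM. Because of the added 1, low genes appear to differ less on this scale than they do in TPM.

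The fractions' libraries did not overlap for 22 of the 45 members, against 44.3% of all tested genes. Of these, 16 were higher in both GFP-positive libraries, against 22.8% of all tested genes and 26.8% of those with a mean of at least 25 TPM. The other 6 were lower in both, against 21.5% and 20.8%. The 16 were 4 glycolytic genes, 4 of pyruvate fate, 2 of the pentose phosphate pathway and 6 of the TCA cycle. The 6 were 2 glycolytic, 2 pentose phosphate and 2 TCA genes.

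**Figure D1:**
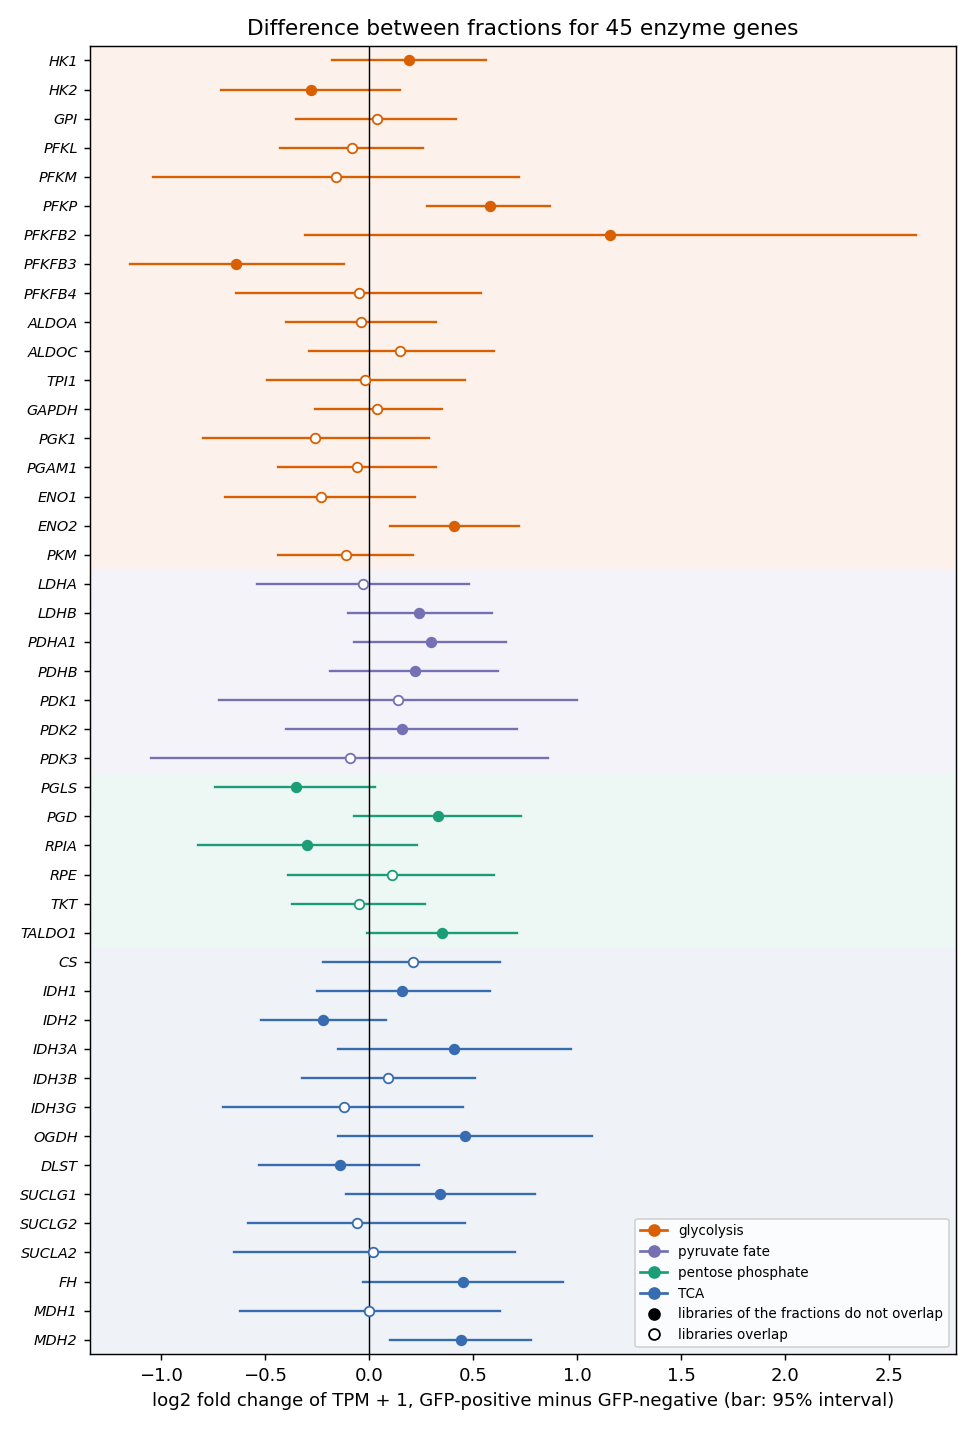
Log2 fold change of TPM + 1, GFP-positive minus GFP-negative, for the 45 tested members in pathway order, with limma's 95% interval as a bar (2 libraries per fraction); filled points are genes whose libraries do not overlap between fractions. Intervals lie wholly above 0 for PFKP, ENO2 and MDH2 and wholly below 0 for PFKFB3, before any adjustment over genes.

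Summed over members, glycolysis took 3.52% and 2.94% of all TPM in GFP-positive libraries and 3.62% and 3.06% in GFP-negative libraries. The fractions overlapped, at a ratio of 0.966 (exact permutation test, two-sided, p = 0.667). TCA members summed to 1912 and 2021 TPM in GFP-positive and 1798 and 1779 TPM in GFP-negative libraries, a ratio of 1.10 (exact permutation test, two-sided, p = 0.333). The means of these sums were 1966 and 1788 TPM. MDH2 alone averaged 502 TPM in GFP-positive and 369 TPM in GFP-negative libraries, so most of the TCA difference lay in that gene. Pentose phosphate members summed to 1088 and 1147 TPM in GFP-positive and 1082 and 1064 TPM in GFP-negative libraries, a ratio of 1.04 (exact permutation test, two-sided, p = 0.333). With 2 libraries against 2, 0.333 is the smallest p this test can give. Genes of pyruvate fate overlapped, at a ratio of 1.04.

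At the entry to glycolysis, hexokinase phosphorylates glucose, and HK1 was the main form. HK1 had 388 and 314 TPM in GFP-positive and 304 and 308 TPM in GFP-negative libraries. HK2, the form known for induction by growth signals and low oxygen, had 114 and 95.5 TPM in GFP-positive and 136 and 118 TPM in GFP-negative libraries. The isoforms thus lay on opposite sides, with log2 fold changes of 0.19 ± 0.15 for HK1 and -0.28 ± 0.18 for HK2 (SE), and neither passed (limma adjusted p = 0.651 and 0.547). Without GFP-positive replicate 1 the HK1 value was 0.04, and without GFP-positive replicate 2 it was 0.34. For HK2, dropping GFP-positive replicate 2 gave -0.15 and dropping GFP-negative replicate 1 gave -0.18. HK2 made up 22.7% and 23.3% of hexokinase TPM in GFP-positive libraries, against 31.0% and 27.8% in GFP-negative libraries. GPI, which converts glucose phosphate to fructose phosphate, had 573 and 535 TPM in GFP-positive and 612 and 477 TPM in GFP-negative libraries, with overlap.

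Phosphofructokinase held the member with the smallest p. PFKP (ENSG00000067057; GENCODE v29 on GRCh38, chromosome 10, 3066333 to 3137712, plus strand), the platelet-type subunit, had 483 and 491 TPM in GFP-positive and 325 and 328 TPM in GFP-negative libraries. Replicates lay close together in both fractions, at 487 ± 5.84 TPM and 326 ± 1.93 TPM (SD, n = 2), a ratio of 1.49. The log2 fold change of 0.58 ± 0.12 (SE; 95% interval 0.28 to 0.87) had a limma unadjusted p of 0.00281 and did not pass (adjusted p = 0.115). It stayed between 0.56 and 0.59 with each library left out in turn. With the replicate number fitted as a block, PFKP passed (limma adjusted p = 0.0313), among 596 genes called, but the labels give the numbers no shared origin. PFKL, the liver-type subunit, had 223 and 223 TPM in GFP-positive and 253 and 220 TPM in GFP-negative libraries. PFKM, the muscle-type subunit, had 46.8 and 39.4 TPM in GFP-positive and 69.2 and 33.3 TPM in GFP-negative libraries. Both overlapped, so the composition of the step differed: PFKP made up 64.1% and 65.1% of phosphofructokinase TPM in GFP-positive libraries, against 50.2% and 56.4% in GFP-negative libraries. The difference was 11.4 percentage points (exact permutation test, two-sided, p = 0.333).

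The PFKFB enzymes, which set the activator of phosphofructokinase, differed in direction. PFKFB3 (chromosome 10, 6144934 to 6254644, plus strand), the isoform with strong kinase over phosphatase activity, had 60.8 and 53.6 TPM in GFP-positive and 103 and 77.5 TPM in GFP-negative libraries. It was lower in both GFP-positive libraries, with the lowest fold change of all members, -0.64 ± 0.21 (SE; 95% interval -1.15 to -0.12; limma unadjusted p = 0.0230, adjusted p = 0.266). PFKFB2, known as the heart isoform, had 13.4 and 9.45 TPM in GFP-positive and 2.20 and 8.38 TPM in GFP-negative libraries. Its log2 fold change, 1.16 ± 0.60 (SE), had a limma adjusted p of 0.457, was the highest of the members and rested on GFP-negative replicate 1, without which it was 0.39. PFKFB4 had 87.8 and 72.0 TPM in GFP-positive and 99.8 and 67.6 TPM in GFP-negative libraries, with overlap. As a share of the TPM of the 3 genes, PFKFB3 took 37.5% and 39.7% in GFP-positive libraries and 50.2% and 50.5% in GFP-negative libraries. PFKFB4 took 54.2% and 53.3% in GFP-positive libraries and 48.8% and 44.0% in GFP-negative libraries. PFKFB4 was therefore the leading form in both GFP-positive libraries, while PFKFB3 led in both GFP-negative libraries.

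Below phosphofructokinase, enzymes were among the most abundant transcripts in the tables, whose ranks leave out ribosomal protein and mitochondrially encoded genes, which are not analysed here. GAPDH, the dehydrogenase of the first oxidising step, ranked 2 by mean among the genes analysed, with 13409 and 12231 TPM in GFP-positive and 13189 and 11736 TPM in GFP-negative libraries. ENO1, the main enolase, ranked 6, with 5853 and 4393 TPM in GFP-positive and 6722 and 5291 TPM in GFP-negative libraries. ALDOA, the main aldolase, ranked 10, with 4622 and 3750 TPM in GFP-positive and 4565 and 4014 TPM in GFP-negative libraries. These genes overlapped between the fractions, and the spread within a fraction was as large as the distance between fractions. PGK1, which makes the first ATP of the pathway, had 3354 and 2283 TPM in GFP-positive and 3809 and 2878 TPM in GFP-negative libraries. TPI1, which interconverts the triose phosphates, had 2320 and 1712 TPM in GFP-positive and 2288 and 1779 TPM in GFP-negative libraries. PKM, the pyruvate kinase whose splice forms a gene total does not separate, had 2045 and 1786 TPM in GFP-positive and 2211 and 1930 TPM in GFP-negative libraries. None of them separated the fractions. PGAM1, the mutase, had 1068 and 838 TPM in GFP-positive and 1047 and 934 TPM in GFP-negative libraries. Between fractions, limma's 95% intervals of the log2 fold change ran from -0.26 to 0.35 for GAPDH, from -0.40 to 0.32 for ALDOA, from -0.44 to 0.21 for PKM and from -0.80 to 0.29 for PGK1. The annotation lists 62 pseudogenes named for GAPDH, 13 for PGAM1 and 6 for LDHA. How reads shared with such near copies were assigned is not given in the sources used here, so these levels are uncertain to that extent.

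**Figure D2:**
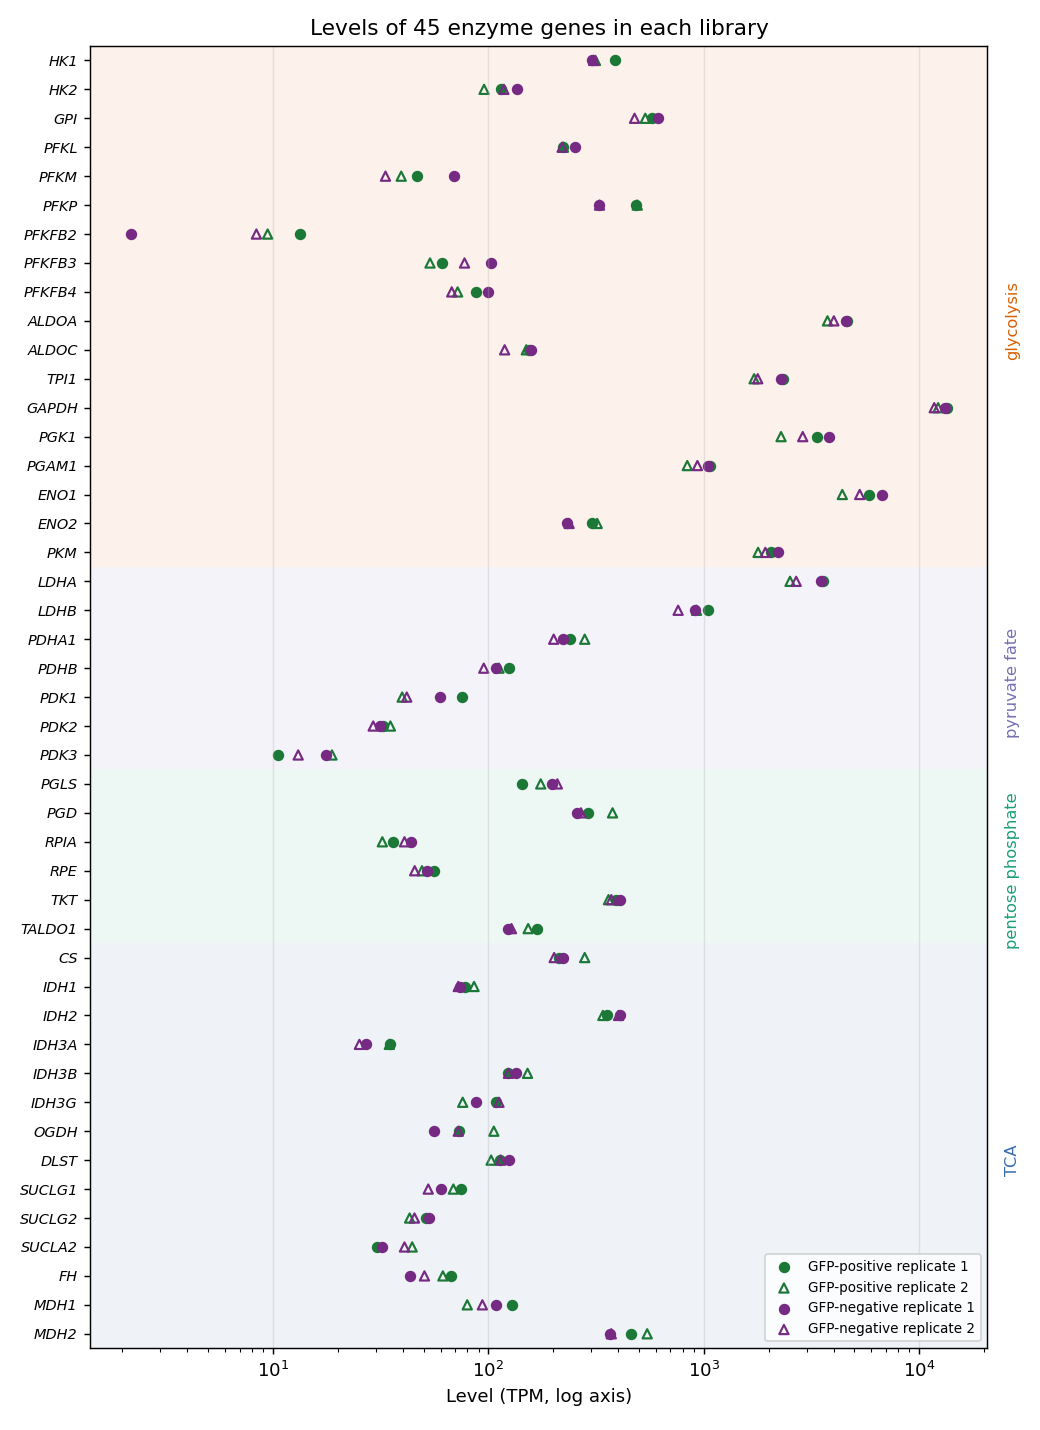
Level of each of the 45 tested members in each library (TPM, log axis), in pathway order; green marks GFP-positive and purple GFP-negative libraries, circles replicate 1 and triangles replicate 2. For ALDOA, TPI1, PGK1, ENO1 and LDHA both circles lie right of both triangles, while for PFKP, ENO2 and MDH2 both green points lie right of both purple points.

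Many of these genes were ordered by replicate number and not by fraction. Both libraries numbered 1 lay above both libraries numbered 2 for 17 of the 45 members, against 15.2% of all tested genes, and the reverse held for 1 member, against 15.2%. The 17 were 11 of 18 glycolytic genes (GPI, PFKM, PFKFB4, ALDOA, ALDOC, TPI1, GAPDH, PGK1, PGAM1, ENO1 and PKM), then LDHA, PDK1, RPE, TKT, SUCLG2 and MDH1. The member in the reverse order was SUCLA2. For the 10 members with a mean of at least 500 TPM, a limit set after the values were seen, replicate 1 over replicate 2 ran from 1.07 to 1.47 in GFP-positive libraries and from 1.12 to 1.32 in GFP-negative libraries. Over the same genes, GFP-positive over GFP-negative means ran from 0.843 to 1.18. The labels give the number no meaning, such as a day or a batch. Among targets of hypoxia-inducible factors outside glycolysis, BNIP3, a mitophagy receptor, had 451 and 272 TPM in GFP-positive and 514 and 383 TPM in GFP-negative libraries. FAM162A, a mitochondrial protein gene, had 409 and 200 TPM in GFP-positive and 450 and 241 TPM in GFP-negative libraries. For both genes, named after their values were seen, the libraries numbered 1 were again the higher ones. Of the 19 tested genes of that list, 4 were in this order, against 15.2% of all tested genes, and 1 in the reverse, against 15.2%. NDRG1, of the same list, was higher in the library numbered 2 of each fraction, with 85.9 and 103 TPM in GFP-positive and 148 and 218 TPM in GFP-negative libraries. What lies behind the order was not tested.

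**Figure D3:**
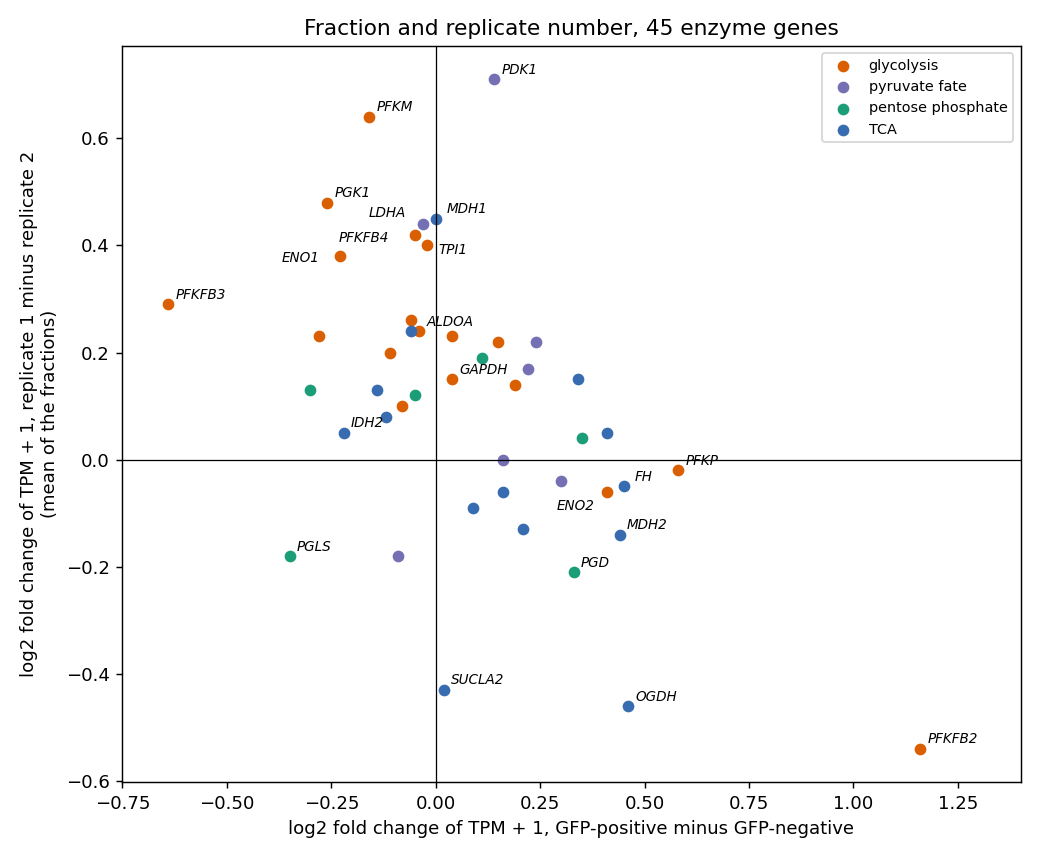
Each point is 1 of the 45 tested members, placed by its log2 fold change between fractions (horizontal axis, GFP-positive minus GFP-negative) and between replicate numbers (vertical axis, replicate 1 minus replicate 2, mean of both fractions), on log2(TPM + 1). PGK1, ENO1, LDHA and TPI1 lie between 0.38 and 0.48 on the vertical axis, while PFKP, ENO2 and FH lie near 0 there and to the right.

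The minor isoforms ENO2 and LDHB were higher in both GFP-positive libraries, while their major partners overlapped. ENO2 (chromosome 12, 6913745 to 6923698, plus strand), the gamma enolase best known from neurons, had 303 and 320 TPM in GFP-positive and 231 and 237 TPM in GFP-negative libraries. Its log2 fold change was 0.41 ± 0.13 (SE; 95% interval 0.10 to 0.72; limma unadjusted p = 0.0182, adjusted p = 0.247). Of the other members on chromosome 12, TPI1 (6867119 to 6870948), GAPDH (6533927 to 6538374), PFKM and CS overlapped between fractions. LDHB (21635342 to 21757857) was higher in both GFP-positive libraries. ENO2 made up 4.92% and 6.79% of enolase TPM in GFP-positive libraries, against 3.33% and 4.28% in GFP-negative libraries. ALDOC, the minor aldolase, had 155 and 150 TPM in GFP-positive and 157 and 119 TPM in GFP-negative libraries, with overlap. LDHA, the subunit known to favour lactate formation, had 3576 and 2513 TPM in GFP-positive and 3493 and 2684 TPM in GFP-negative libraries. LDHB, the heart-type subunit, had 1047 and 925 TPM in GFP-positive and 909 and 760 TPM in GFP-negative libraries (log2 fold change 0.24 ± 0.14, SE; limma adjusted p = 0.515). The LDHB share of lactate dehydrogenase TPM was 22.7% and 26.9% in GFP-positive libraries and 20.7% and 22.1% in GFP-negative libraries. Its lower GFP-positive value lay just above the higher GFP-negative one.

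**Figure D4:**
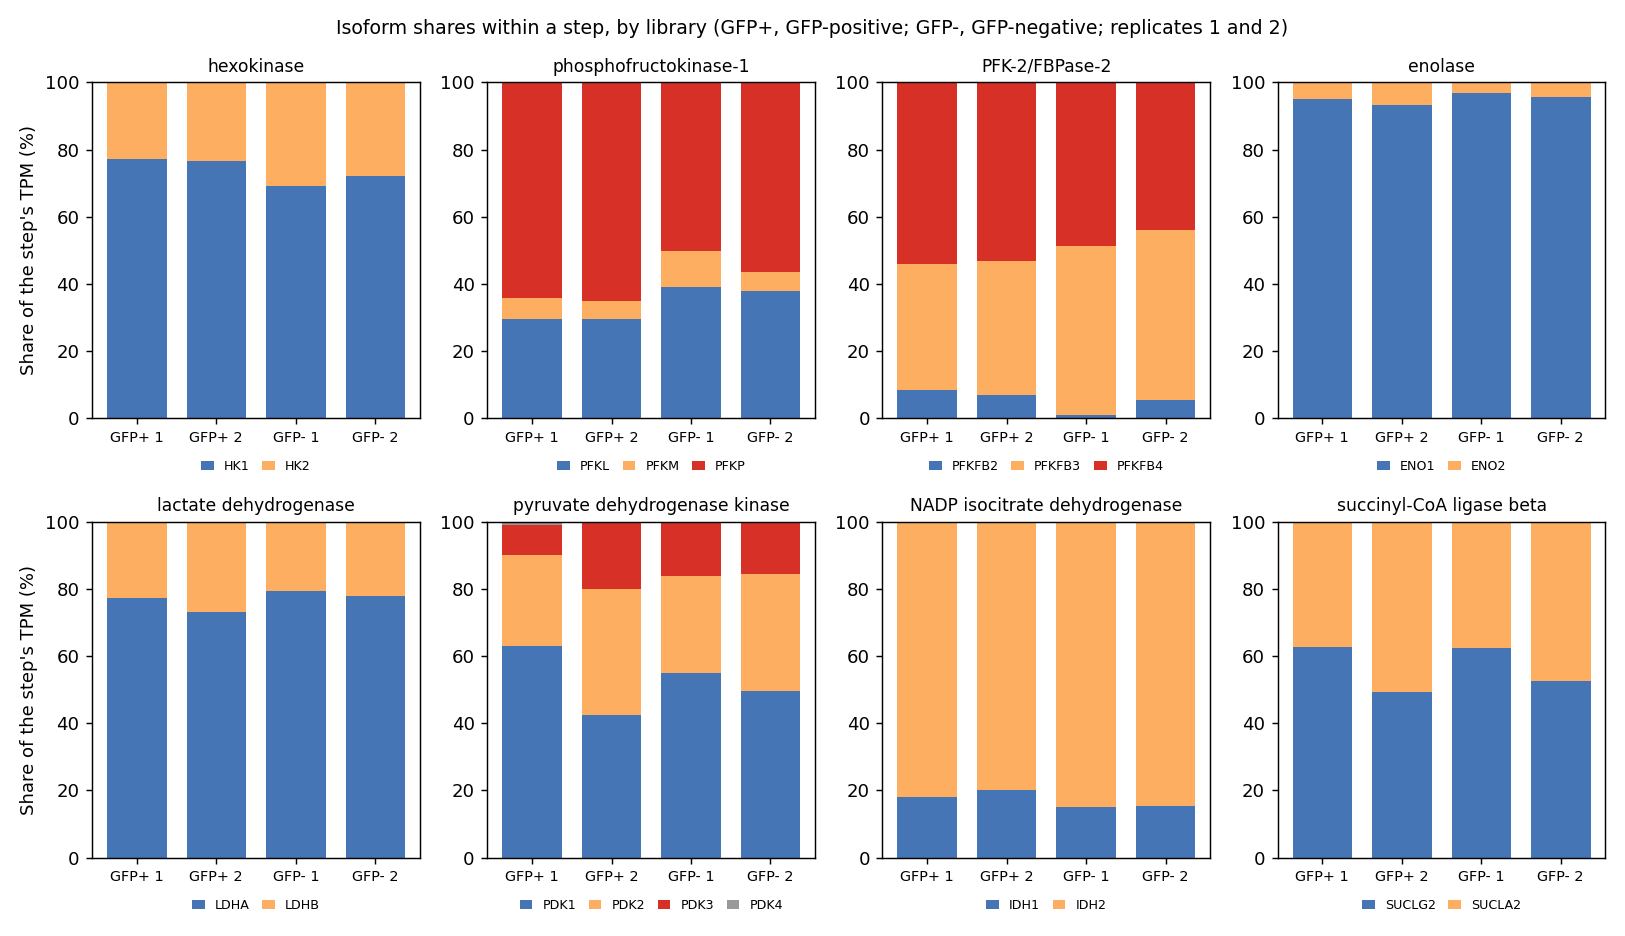
Share of each isoform in the summed TPM of its step (percent, vertical axis) in each library, with GFP-positive libraries left of GFP-negative ones. PFKP takes 64.1% and 65.1% in GFP-positive and 50.2% and 56.4% in GFP-negative libraries, while PDK and succinyl-CoA ligase shares differ as much within as between fractions.

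At the entry of pyruvate into mitochondria, both measured subunits of the first enzyme of pyruvate dehydrogenase were higher in both GFP-positive libraries. PDHA1, the catalytic alpha subunit, had 240 and 280 TPM in GFP-positive and 221 and 201 TPM in GFP-negative libraries (log2 fold change 0.30 ± 0.15, SE; limma adjusted p = 0.441). PDHB, the beta subunit, had 125 and 112 TPM in GFP-positive and 109 and 95.2 TPM in GFP-negative libraries (0.22 ± 0.17; limma adjusted p = 0.629). The other subunits of the complex were in the same order. DLAT, its acetyltransferase, had 49.1 and 33.7 TPM in GFP-positive and 30.5 and 32.5 TPM in GFP-negative libraries. DLD, its dihydrolipoamide dehydrogenase, had 77.6 and 71.5 TPM in GFP-positive and 55.7 and 56.5 TPM in GFP-negative libraries. PDHX, its binding protein, averaged 42.9 ± 4.26 TPM in GFP-positive and 31.5 ± 0.771 TPM in GFP-negative libraries (SD, n = 2), without overlap. None of these 3 passed (limma adjusted p = 0.613, 0.387 and 0.444), and the complex was picked out after its values were seen.

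The kinases that switch pyruvate dehydrogenase off showed no common direction. PDK1, a known target of hypoxia-inducible factors, had 75.8 and 39.8 TPM in GFP-positive and 59.7 and 41.8 TPM in GFP-negative libraries. PDK2, the most widely expressed kinase of the family, had 32.5 and 35.1 TPM in GFP-positive and 31.3 and 29.2 TPM in GFP-negative libraries, without overlap (log2 fold change 0.16 ± 0.23, SE; limma adjusted p = 0.838). PDK3 had 10.6 and 18.8 TPM in GFP-positive and 17.6 and 13.1 TPM in GFP-negative libraries. PDK1 thus varied with the library: its share of the TPM of the 4 kinases was 63.1% and 42.5% in GFP-positive and 54.9% and 49.7% in GFP-negative libraries. PDK4, a kinase induced by fasting in other tissues, had 1.18 TPM in GFP-positive replicate 1 and was listed at 0 in the other 3 libraries, so it was not tested.

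Pentose phosphate enzymes went both ways. In the oxidative branch, PGLS, the lactonase, had 144 and 175 TPM in GFP-positive and 197 and 209 TPM in GFP-negative libraries (log2 fold change -0.35 ± 0.16, SE; limma adjusted p = 0.399). PGD, the next enzyme and a source of NADPH, had 291 and 377 TPM in GFP-positive and 259 and 269 TPM in GFP-negative libraries (0.33 ± 0.16; limma adjusted p = 0.443). Neighbouring steps of the branch lay on opposite sides, without overlap, but their size rested on single libraries: the value of PGD was 0.14 without GFP-positive replicate 2 and that of PGLS was -0.21 without GFP-positive replicate 1. In the non-oxidative branch, TALDO1, transaldolase, had 169 and 153 TPM in GFP-positive and 123 and 128 TPM in GFP-negative libraries (0.35 ± 0.15; limma adjusted p = 0.370). RPIA, the ribose phosphate isomerase, was lower in both GFP-positive libraries, at 36.2 and 32.2 TPM in GFP-positive and 43.6 and 40.8 TPM in GFP-negative libraries (-0.30 ± 0.21; limma adjusted p = 0.612). TKT, transketolase, was the most abundant of the branch and overlapped, with 391 and 361 TPM in GFP-positive and 407 and 372 TPM in GFP-negative libraries. RPE, the epimerase, overlapped too, with 56.2 and 49.2 TPM in GFP-positive and 52.1 and 45.5 TPM in GFP-negative libraries.

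In the TCA cycle, 10 of 14 members had a log2 fold change above 0, against 51.8% of all tested genes and 55.1% of those with a mean of at least 25 TPM. Of the 10, MDH1 (0.00), SUCLA2 (0.02) and IDH3B (0.09) lay near 0 and overlapped, as did SUCLG2 (-0.06) below 0, so the count of signs overstates a common direction. MDH2 (chromosome 7, 76048051 to 76067508, plus strand), the mitochondrial malate dehydrogenase, had 458 and 546 TPM in GFP-positive and 367 and 372 TPM in GFP-negative libraries. Its log2 fold change of 0.44 ± 0.14 (SE; 95% interval 0.10 to 0.78; limma unadjusted p = 0.0192) did not pass (adjusted p = 0.251). MDH1, the cytosolic form, overlapped, with 129 and 79.8 TPM in GFP-positive and 109 and 93.8 TPM in GFP-negative libraries. FH, fumarase, the enzyme before malate dehydrogenase, had 67.0 and 61.5 TPM in GFP-positive and 43.3 and 50.5 TPM in GFP-negative libraries (0.45 ± 0.20; limma adjusted p = 0.385). OGDH, the first enzyme of the oxoglutarate dehydrogenase complex, had 72.7 and 106 TPM in GFP-positive and 55.8 and 72.5 TPM in GFP-negative libraries (0.46 ± 0.25; limma adjusted p = 0.480). The gap between the fractions was narrow for OGDH, whose lower GFP-positive value lay just above the higher GFP-negative one. DLST, the second enzyme of that complex, lay the other way, with 113 and 103 TPM in GFP-positive and 125 and 114 TPM in GFP-negative libraries (-0.14 ± 0.16; limma adjusted p = 0.764). CS, citrate synthase, the first enzyme of the cycle, overlapped, with 213 and 280 TPM in GFP-positive and 221 and 202 TPM in GFP-negative libraries.

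Isocitrate dehydrogenases and succinyl-CoA ligase were mixed by subunit. IDH3A, the catalytic subunit of the NAD-dependent enzyme, had 35.0 and 34.7 TPM in GFP-positive and 26.9 and 25.2 TPM in GFP-negative libraries (log2 fold change 0.41 ± 0.23, SE; limma adjusted p = 0.494). Its partner subunits overlapped. IDH3B had 124 and 152 TPM in GFP-positive and 134 and 124 TPM in GFP-negative libraries, and IDH3G had 109 and 76.0 TPM in GFP-positive and 87.8 and 112 TPM in GFP-negative libraries. Among the NADP-dependent forms, cytosolic IDH1 had 78.3 and 85.8 TPM in GFP-positive and 73.6 and 72.5 TPM in GFP-negative libraries (0.16 ± 0.17; limma adjusted p = 0.746). Mitochondrial IDH2 had 356 and 340 TPM in GFP-positive and 410 and 402 TPM in GFP-negative libraries (-0.22 ± 0.12; limma adjusted p = 0.486). These lay on opposite sides, and the IDH2 share of their TPM was 82.0% and 79.9% in GFP-positive libraries, against 84.8% and 84.7% in GFP-negative libraries. SUCLG1, the alpha subunit of succinyl-CoA ligase, had 74.6 and 68.8 TPM in GFP-positive and 60.2 and 52.6 TPM in GFP-negative libraries (0.34 ± 0.19; limma adjusted p = 0.478). Its beta subunits overlapped. SUCLG2, the GTP-forming one, had 51.4 and 43.1 TPM in GFP-positive and 53.2 and 45.4 TPM in GFP-negative libraries, and SUCLA2, the ATP-forming one, had 30.5 and 44.3 TPM in GFP-positive and 32.0 and 40.8 TPM in GFP-negative libraries.

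Of 47 other enzymes and carriers of these pathways found in the tables, 33 were tested and 0 passed limma over all genes, while at an unadjusted p under 0.05 there were 3 higher, against 6.69% of all tested genes, and 2 lower, against 7.38%. These 5 of 33 lay near the background of 14.1% and are given as values. Those higher were SDHB (log2 fold change 1.01), a subunit of succinate dehydrogenase, ME2 (0.50), the mitochondrial malic enzyme, and ACO1 (0.72), the cytosolic aconitase. Those lower were TIGAR (-1.62), a phosphatase that removes the activator of phosphofructokinase, and PGM1 (-0.64), the phosphoglucomutase of glycogen metabolism. SDHB had 161 and 73.2 TPM in GFP-positive and 58.2 and 49.1 TPM in GFP-negative libraries, so GFP-positive replicate 1 stood far above the rest. TIGAR had 9.45 and 7.13 TPM in GFP-positive and 19.5 and 38.2 TPM in GFP-negative libraries. PGM1 had 122 and 95.8 TPM in GFP-positive and 179 and 159 TPM in GFP-negative libraries. PKLR, the pyruvate kinase of liver and red cells, stayed near 0, at 1.13 and 0 TPM in GFP-positive and 0.270 and 0.690 TPM in GFP-negative libraries. BPGM, the red cell mutase, overlapped between fractions, with 13.2 and 15.4 TPM in GFP-positive and 14.7 and 8.81 TPM in GFP-negative libraries. Over the 33 tested, 22 had a log2 fold change above 0, against 51.8% of all tested genes, with a median of 0.23 against 0.02. Libraries did not overlap for 11 that were higher, against 22.8% of all tested genes, and for 2 that were lower, against 21.5%. This list too was chosen with earlier results known.

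The listed targets of hypoxia-inducible factors outside glycolysis were mostly lower in GFP-positive libraries. Of 19 tested, 17 had a log2 fold change below 0, against 48.2% of all tested genes. Their median was -0.36, against 0.02 over all tested genes. The list was chosen with earlier results of these data known, so its counts are a description and not a test. None of the 19 passed limma, while at an unadjusted p under 0.05 there was 1 higher, against 6.69% of all tested genes, and 3 were lower, against 7.38%. Libraries did not overlap for 11 of them, 10 lower, against 21.5% of all tested genes, and 1 higher, against 22.8%. DDIT4, an inhibitor of mTOR signalling, had 101 and 71.6 TPM in GFP-positive and 179 and 146 TPM in GFP-negative libraries (log2 fold change -0.92 ± 0.22, SE; limma adjusted p = 0.157). NDRG1, a stress-induced gene, had 85.9 and 103 TPM in GFP-positive and 148 and 218 TPM in GFP-negative libraries (-0.93 ± 0.23; limma adjusted p = 0.159). P4HA2, a collagen prolyl hydroxylase, had 85.1 and 61.8 TPM in GFP-positive and 120 and 132 TPM in GFP-negative libraries. LOX, a collagen cross-linking enzyme, was the one in the other direction at that limit, with 42.4 and 43.4 TPM in GFP-positive and 17.9 and 28.8 TPM in GFP-negative libraries. Of the 18 glycolytic members, PFKFB3 and HK2 were the 2 that were lower in both GFP-positive libraries as well. Another 4, ENO2 among them, were higher in both, and 12 overlapped, PGK1 among them. LDHA and PDK1 overlapped too.

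Among 19 tested regulators, 0 passed limma, while at an unadjusted p under 0.05 there was 1 higher, against 6.69% of all tested genes, and 1 lower, against 7.38%. That share is no larger than the background, and both genes are given as values. MYC, a transcription factor known to drive glycolytic genes, had 94.7 and 75.9 TPM in GFP-positive and 41.3 and 53.3 TPM in GFP-negative libraries (log2 fold change 0.84 ± 0.22, SE; limma adjusted p = 0.188). EPAS1, the endothelial hypoxia-inducible factor, had 13.6 and 12.7 TPM in GFP-positive and 24.5 and 29.0 TPM in GFP-negative libraries (-0.97 ± 0.28; limma adjusted p = 0.222). HIF1A was more abundant than EPAS1 in both fractions, with 164 and 211 TPM in GFP-positive and 222 and 221 TPM in GFP-negative libraries (-0.25 ± 0.17; limma adjusted p = 0.580). It lay below both GFP-negative values in both GFP-positive libraries.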

How the data were processed

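Trizol-extracted RNA was made into TruSeq libraries, per the labels' protocols. Bowtie and RSEM (no versions) and the builds hg19 and mm10 (no roles) are listed in the submitters' processing notes. Annotation and strand setting are not given in the sources used, so reads of overlapping antisense transcripts cannot be told apart. The authors deposited 1 table per library with a TPM value per gene. The unit was taken from the column sums, 996324 to 997293 in each library, and from RSEM, since the headers name only identifier, symbol and library. TPM corrects for length and library total and keeps no read depth. Ribosomal protein genes, mitochondrially encoded genes, PECAM1 and eGFP are not analysed here.

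Groups and replicate numbers came from the titles. TPM was tested on log2(TPM + 1) with limma 3.58.1 in R 4.3.3, fitting a variance trend and keeping genes that reached 1 TPM in 2 or more libraries. Two-sided p-values were adjusted over all 15425 genes by Benjamini-Hochberg. The procedure was checked on simulated data, where it recovered 38.2% of changes of log2 1 and 87.5% of changes of log2 2. Changes were placed in 200 genes per simulation, all with a mean level above about 10 TPM. Noise was drawn independently for each library from the fitted variances, so these shares do not describe all tested genes. Smaller changes, the size of most member differences, were not simulated. Isoform shares and pathway sums were computed per library and compared by an exact permutation test. All 46 members were accounted for; the rule asked for values per library for members that passed, for up to 10 without overlap in each direction with the largest change, and for steps with several isoforms, and they are given for all. Genes of the other lists were named by an unadjusted p under 0.05 or, after their values were seen, for their role. Gene coordinates are from GENCODE v29 on GRCh38. The members and gene lists were chosen with earlier results of these data known. The lists also held blood progenitor, megakaryocyte, myeloid, pluripotent, muscle, neural and endodermal markers. Summed levels were, for blood progenitor markers, 503 and 668 TPM in GFP-positive and 225 and 255 TPM in GFP-negative libraries, and, for megakaryocyte markers, 179 and 210 TPM in GFP-positive and 88.2 and 101 TPM in GFP-negative libraries. Of the 8 blood progenitor markers, 5 were higher in both GFP-positive libraries, 1 was lower and 2, SPN and PTPRC, overlapped. The lower one was KIT, with 6.16 and 6.43 TPM in GFP-positive and 36.7 and 35.8 TPM in GFP-negative libraries (limma adjusted p = 0.0483). Pluripotent markers summed to 576 and 472 TPM in GFP-positive and 398 and 394 TPM in GFP-negative libraries, mostly LIN28A, while POU5F1 had 0.930 and 0.0300 TPM in GFP-positive and 9.68 and 5.88 TPM in GFP-negative libraries. Myeloid markers summed to 23.6 and 60.2 TPM in GFP-positive and 21.9 and 31.6 TPM in GFP-negative libraries. Muscle markers summed to 98.7 and 123 TPM in GFP-positive and 28.6 and 62.2 TPM in GFP-negative libraries, mostly DES (78.4 and 111, then 19.6 and 54.1 TPM). Neural markers summed to 141 and 210 TPM in GFP-positive and 155 and 242 TPM in GFP-negative libraries, mostly TUBB3 (136 and 209, then 152 and 233 TPM). Endodermal markers summed to 17.3 and 14.4 TPM in GFP-positive and 46.1 and 74.0 TPM in GFP-negative libraries, in the latter mostly APOA1 (38.0 and 63.6 TPM). Alternatives were another pseudocount (0.1), no filter, a mean above 5 TPM, no variance trend, upper quartile and median-ratio scaling, a block for the replicate number, and leaving out each library in turn.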

Additional observations from a re-analysis of the deposited data

How the results depend on the processing

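The count of members passing limma was 0 in every setting tried except with the replicate number as a block, where 1 passed, PFKP (adjusted p = 0.0313, log2 fold change 0.58), among 596 genes called, against 69 without the block. The labels give the numbers no shared origin, so the numbers are not taken as pairs. Deviations of same-numbered libraries correlated at 0.0719 over all tested genes and 0.159 over the members, which does not settle whether they are pairs. Of the 45 members, 17 had both libraries numbered 1 above both numbered 2, and 1 had the reverse. With the block, 3 of the other pathway, regulator and hypoxia genes passed (DDIT4, NDRG1 and SDHB), against 0 in the other settings. Over all genes, limma called 164 with a mean above 5 TPM, 0 without a filter (2230 at an unadjusted p under 0.05), 0 without a variance trend (2072), 0 with a pseudocount of 0.1 (2101), and 18 to 65 with a library left out, fewest without GFP-negative replicate 1 (18). Members at an unadjusted p under 0.05 in limma were 4, and 1 to 7 with a library left out: 7 without GFP-positive replicate 1, 2 once GFP-positive replicate 2 was dropped, 1 when GFP-negative replicate 1 was dropped and 3 when GFP-negative replicate 2 was. They were 0 without a variance trend and 10 with the block, where 2631 of all 15425 genes were. The median log2 fold change of members was 0.00 to 0.04 under other scalings, pseudocounts and filters, and -0.05 to 0.17 with a library left out; it was below 0 without GFP-negative replicate 2 (-0.05) and without GFP-positive replicate 1 (-0.01).

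Of 29 members named with a fold change, 5 changed sign with a library left out, with ranges of -0.19 to 0.11 for ALDOA, -0.24 to 0.20 for TPI1, -0.04 to 0.13 for GAPDH, -0.54 to 0.02 for PGK1 and -0.28 to 0.22 for LDHA, and 0 changed sign in the other settings. With a library left out, 19 of the 29 moved by over 1.5 times; the 10 that did not were PFKP, PFKFB3, ENO2, RPIA, TALDO1, IDH2, IDH3A, SUCLG1, FH and MDH2. Isoform share differences kept their direction with each library left out for PFKP (8.24 to 14.5 points), PFKFB3 (-12.8 to -10.7), HK2 (-7.93 to -4.73), ENO2 (1.11 to 2.99), LDHB (1.29 to 5.54) and IDH2 (-4.88 to -2.75), but not for PDK1 (-9.86 to 10.8) or SUCLA2 (-5.20 to 8.22). The summed ratio ran from 0.879 to 1.05 for glycolysis and from 1.07 to 1.13 for the TCA cycle. With 2 libraries per fraction and unknown depth, a difference that does not pass does not show equal levels. DESeq2 and its size factors were planned only for counts and were not run.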
